A study of Mus musculus with 8 samples.

Results

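The genes described here are 9 genes of the erythroid programme, of 36451 gene names on the array, read by 10 of its 55681 non-control probes. They were chosen by gene symbol: the globin genes Hba-x, Hba-a1, Hbb-bh1 and Hbb-y (the last with 2 probes, kept apart), the haem synthesis gene Alas2, the red cell membrane gene Slc4a1, the transcription factors Klf1 and Gata1, and the erythropoietin receptor gene Epor. Earlier results of these data were known at the choice, so member counts set beside shares of all probes are descriptive. The study asked what conditional loss of Geminin does to gene expression in the spinal neural tube, from which the spinal cord forms, and in the paraxial tissue beside it. Tissue was cut with a laser from C57BL/6 mouse embryos at E10.5, and RNA was hybridised to 1-colour arrays. Neural tube and paraxial tissue of each of 2 wild-type and 2 mutant embryos gave 8 arrays, 2 for each of the 4 combinations of genotype and tissue. The mutant genotype is given in the labels as fl/fl; cre/o, and the labels name neither the promoter that drives Cre nor a Cre control among the wild-type embryos.

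Red blood cells of the early mouse embryo are made in the yolk sac and circulate through the vessels of the embryo. These primitive erythrocytes hold haemoglobins built from embryonic chains, zeta (Hba-x) and epsilon-y or beta-h1 (Hbb-y, Hbb-bh1), beside the alpha chain (Hba-a1), and adult beta chains come to dominate later. Gata1 and Klf1 encode zinc finger factors that drive erythroid genes, Epor receives erythropoietin, Alas2 encodes the erythroid enzyme of the first step of haem synthesis, and Slc4a1 encodes band 3, the anion exchanger of the red cell membrane. In tissue that holds many cell types, fewer cells of a type and less RNA per cell cannot be told apart.

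The probes are shown because Hbb-y gave a different answer at each of its probes and because the probe of Hba-a1 is also listed for its duplicate Hba-a2. Each sequence is as given in the scanner files, on mouse build mm9, and capitals in the downstream Hbb-y probe mark the polyadenylation signal AATAAA. Of that probe, 30 bases are printed.
Hba-x, chr11:32177668-32177727, plus strand: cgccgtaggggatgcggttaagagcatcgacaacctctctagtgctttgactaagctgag
Hba-a1, chr11:32183955-32184014, plus strand: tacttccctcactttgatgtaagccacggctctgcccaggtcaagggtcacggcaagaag
Hbb-y upstream probe, chr7:111000448-111000507, minus strand: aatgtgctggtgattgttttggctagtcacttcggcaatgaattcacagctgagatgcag
Hbb-y downstream probe, within chr7:111000268-111000327, minus strand: cacatcatgtttAATAAAgatcatccttcc
The Hbb-y probes lie 120 bases apart in the genome, the downstream one nearer the 3′ end of the transcript. For the upstream Hbb-y probe and the Hbb-bh1 probe the files also list predicted transcripts that the RefSeq table used here does not name. The other members were read at chr7:110990209-110990268 (Hbb-bh1, minus strand), chrX:147004993-147005052 (Alas2, plus strand), chr11:102210256-102210315 (Slc4a1, minus strand), chr8:87428881-87428940 (Klf1, plus strand), chrX:7536392-7536451 (Gata1, minus strand) and chr9:21763422-21763481 (Epor, minus strand). No mm9 annotation was used, so exons and untranslated regions are not given.

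All 10 probes were well above background on all 8 arrays and none of their spots was saturated. The share of all probes well above background ran from 71.5% to 77.9%. The 75th percentile of the linear signal ran from 3164 to 6361, highest on the wild-type neural tube array of embryo 2. Signals below are log2 values scaled to a common 75th percentile (scaled log2 signal), and differences are log2 differences from limma with their standard errors. The array number limits the precision, since each genotype is represented by 2 embryos. Gmnn, which encodes Geminin, was lower on both mutant arrays than on both wild-type arrays of each tissue: 12.10 and 11.80 against 12.37 and 12.23 in neural tube, and 11.41 and 11.40 against 12.20 and 11.88 in paraxial tissue. Of all probes tested, 15.9% in neural tube and 16.3% in paraxial tissue were lower in this way, and limma called 0% between genotypes in either tissue. Neural tube markers were higher in neural tube for 8 of 8 genes and paraxial markers were lower there for 10 of 10, in both genotypes.

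The members stood highest in the mutant paraxial tissue at most probes. The mutant paraxial group had the highest mean of the 4 groups at 9 of 10 probes, and both its arrays lay above the 6 other arrays at 7 of 10, against 6.97% of all 42754 probes tested. The downstream Hbb-y probe was the exception to the first count, and at Gata1, Epor and that probe another array stood among the top ranks.

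**Figure D1:**
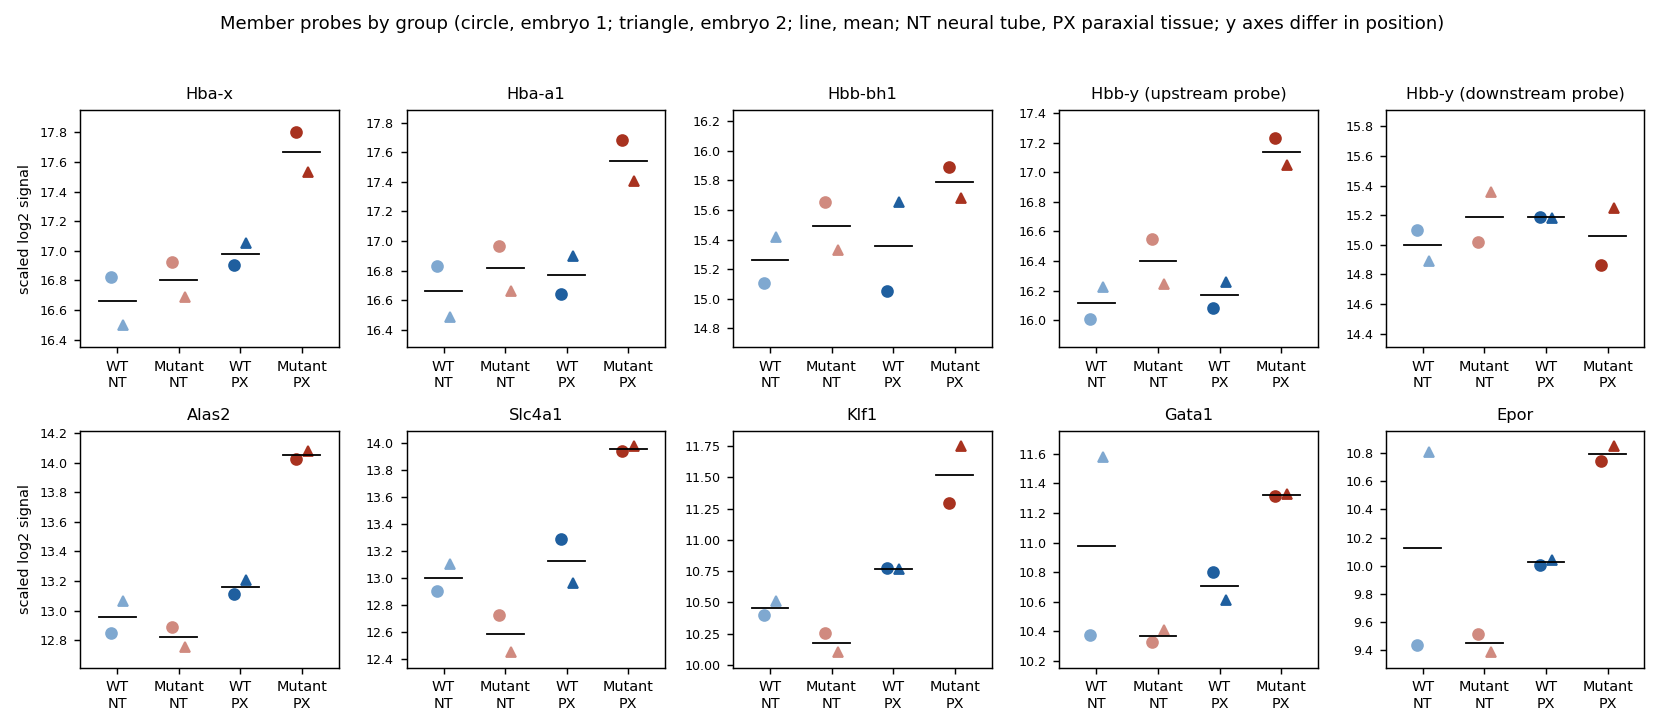
Scaled log2 signal (y axis) of each member probe in the 4 groups (x axis), with circles for embryo 1, triangles for embryo 2 and lines for the mean of 2 arrays. Mutant paraxial arrays sit highest for Alas2 at 14.02 and 14.08, while for Gata1 and Epor the wild-type neural tube array of embryo 2 sits at 11.58 and 10.81.

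Among the globins, Hba-x, the embryonic zeta chain, read 16.82 and 16.50 in wild-type neural tube, 16.92 and 16.69 in mutant neural tube, 16.90 and 17.05 in wild-type paraxial tissue, and 17.80 and 17.54 in mutant paraxial tissue. Hba-a1, the alpha chain, read 16.83 and 16.49, then 16.97 and 16.66, then 16.64 and 16.90, and 17.68 and 17.40 in the same order of groups. Both alpha-type genes were highest on both mutant paraxial arrays, and their other 6 arrays lay between 16.49 and 17.05. They also followed each other closely, as did Gata1 and Epor (r = 0.97 for each pair over 8 arrays that share hybridisation and scaling).

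The beta-type genes gave a more divided picture. Hbb-bh1, the beta-h1 chain, read 15.11 and 15.42 in wild-type neural tube, 15.65 and 15.33 in mutant neural tube, 15.06 and 15.65 in wild-type paraxial tissue, and 15.89 and 15.68 in mutant paraxial tissue, so that its highest wild-type paraxial array came within 0.03 of the lower mutant one. At the upstream Hbb-y probe the values were 16.01 and 16.22, 16.55 and 16.25, 16.09 and 16.26, and 17.23 and 17.05, with the mutant paraxial arrays clear of the rest. At the downstream Hbb-y probe they were 15.10 and 14.89, 15.02 and 15.35, 15.19 and 15.18, and 14.87 and 15.25, and the 8 arrays lay within 0.49 of each other. The 2 probes of Hbb-y thus disagreed, and the cause was not tested.

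Alas2 and Slc4a1, which serve haem synthesis and the red cell membrane, were both clearly highest on the mutant paraxial arrays. Alas2 read 12.85 and 13.07 in wild-type neural tube, 12.89 and 12.75 in mutant neural tube, 13.11 and 13.20 in wild-type paraxial tissue, and 14.02 and 14.08 in mutant paraxial tissue. Slc4a1 read 12.90 and 13.11, 12.73 and 12.45, 13.29 and 12.96, and 13.94 and 13.97 in the same order. For both genes the mutant neural tube had the lowest mean and the mutant paraxial tissue the highest.

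Of the regulators, Klf1 read 10.40 and 10.51 in wild-type neural tube, 10.25 and 10.10 in mutant neural tube, 10.78 and 10.76 in wild-type paraxial tissue, and 11.29 and 11.75 in mutant paraxial tissue. No pair of its 4 groups overlapped, and their order from low to high was mutant neural tube, wild-type neural tube, wild-type paraxial, mutant paraxial. Gata1 read 10.37 and 11.58, 10.33 and 10.41, 10.80 and 10.61, and 11.32 and 11.33. Epor read 9.44 and 10.81, 9.52 and 9.39, 10.01 and 10.04, and 10.74 and 10.85. Gata1 and Epor therefore agreed between arrays in 3 of the groups, while the 2 wild-type neural tube arrays lay over 1 log2 unit apart. That high array also carried more of the paraxial marker list (a centred mean of -0.69 against -2.59 on the other wild-type neural tube array) and of the endothelial list (0.06 against -0.72), and the part of these in its Gata1 and Epor signals was not tested. Alas2 and Gata1 are X-linked. Xist, which marks the inactive X chromosome, read 14.24 and 14.47 on the wild-type paraxial arrays of embryos 1 and 2. On the mutant paraxial arrays it read 13.94 and 7.0, where Alas2 read 14.02 and 14.08 and Gata1 11.32 and 11.33. The Y-linked Eif2s3y read 11.43 and 11.32 in wild-type and 10.92 and 11.96 in mutant paraxial tissue. Xist was thus low in mutant embryo 2 only and not balanced between genotypes, and its bearing on the members was not tested.

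The genotype comparison in paraxial tissue asked whether the members differ between mutant and wild type there. At 9 of 10 probes both mutant arrays lay above both wild-type arrays, against 20.4% of all 42754 probes in that direction, and at 0 of 10 below (16.3% of all probes), and the median difference over the 10 probes was 0.76 against -0.00 over all probes. The differences were 0.97 ± 0.24 at the upstream Hbb-y probe (1.96-fold), 0.89 ± 0.23 for Alas2 (1.85-fold), 0.83 ± 0.29 for Slc4a1, 0.77 ± 0.30 for Hba-a1, 0.77 ± 0.50 for Epor, 0.75 ± 0.29 for Klf1, 0.69 ± 0.27 for Hba-x, 0.62 ± 0.50 for Gata1, 0.43 ± 0.28 for Hbb-bh1 and -0.13 ± 0.25 at the downstream Hbb-y probe. None passed: limma called 0 of 10 (adjusted p = 0.997 for each), as it called 0% of all probes tested, and 6 of the 10 had an unadjusted p under 0.05 (3.49% of all probes did). The signs of the 9 positive differences held under every alternative, but 1 left-out array moved several by over 1.5 times. Without the wild-type paraxial array of embryo 2, Gata1 came to 0.05 and Epor to 0.25, and without that of embryo 1 they came to 1.19 and 1.29. Those 2 arrays themselves read alike (Gata1 10.80 and 10.61, Epor 10.01 and 10.04). The fits without 1 of them took an embryo correlation of 0.785, through which the neural tube arrays enter the estimate. Without the whole wild-type embryo 1 or 2, Gata1 came to 0.71 or 0.52 and Epor to 0.75 or 0.79. Without the wild-type paraxial array of embryo 1 Hba-a1 came to 0.51, and without the mutant paraxial array of embryo 2 Klf1 came to 0.49. Hbb-bh1 ranged from 0.14 without wild-type embryo 1 to 0.73 without wild-type embryo 2. The mutant embryos also carried more of the endothelial and surface ectoderm lists in paraxial tissue, described below.

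In neural tube the members showed no common direction between genotypes. Both mutant arrays lay above both wild-type arrays at 1 probe, the upstream Hbb-y probe, and below them at 2, Slc4a1 and Klf1, against 16.4% and 15.9% of all probes. The 5 globin probes differed by 0.14 to 0.28, and the other 5 genes by -0.14 to -0.67, but quantile scaling turned Hba-x and Hba-a1 to -0.05 and -0.04. Limma called 0 of 10 and 0% of all probes tested, and 0 of 10 had an unadjusted p under 0.05, against 3.62% of all probes. Slc4a1 differed by -0.41 ± 0.29 and Klf1 by -0.27 ± 0.29. The values for Gata1 (-0.61 ± 0.50) and Epor (-0.67 ± 0.50) rest on the wild-type neural tube array of embryo 2: without it Gata1 differed by 0.06.

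**Figure D2:**
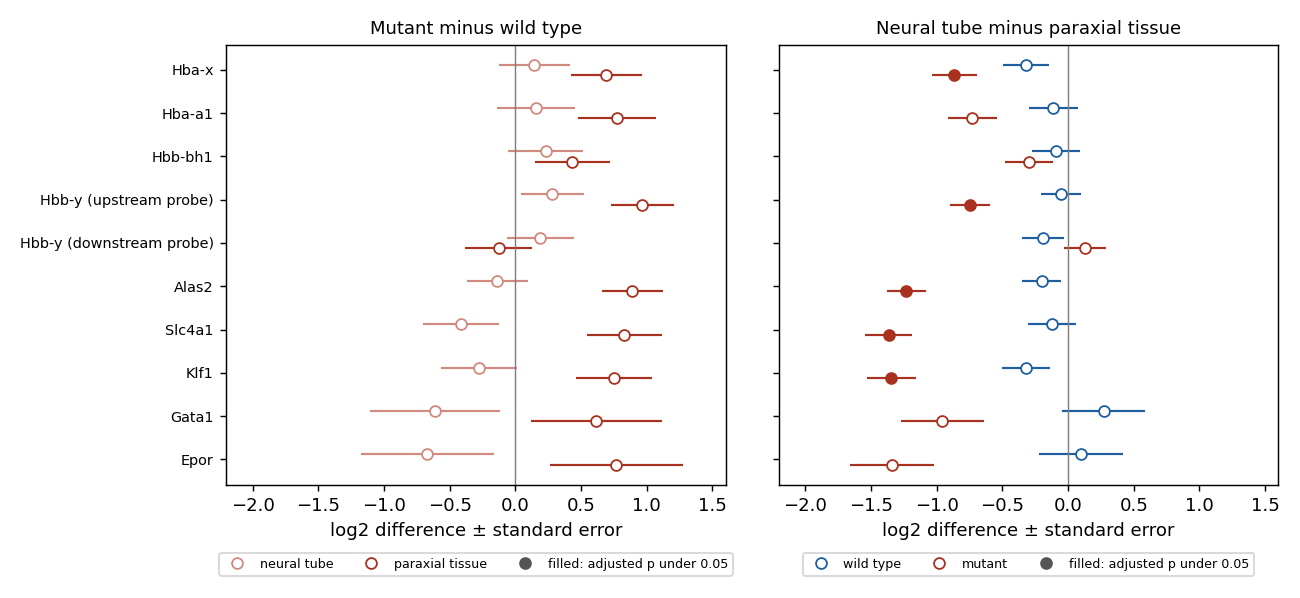
Log2 differences (x axis) with standard errors for each member probe, between genotypes (mutant minus wild type, left) and between tissues of 1 genotype (neural tube minus paraxial tissue, right), with filled points for adjusted p under 0.05. The 5 filled points are all in the mutant tissue comparison, from -0.74 to -1.37.

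The comparison of tissues within the mutant embryos gave the calls. Alas2 was lower in the neural tube than in the paraxial tissue of mutants by a log2 difference of -1.23 ± 0.15 (2.35-fold; limma adjusted p = 0.0131). Slc4a1 was lower by -1.37 ± 0.18 (2.58-fold; limma adjusted p = 0.0152), and Klf1 by -1.34 ± 0.18 (2.54-fold; limma adjusted p = 0.0157). Hba-x was lower by -0.87 ± 0.17 (1.82-fold; limma adjusted p = 0.0379), and the upstream Hbb-y probe by -0.74 ± 0.15 (1.67-fold; limma adjusted p = 0.0411). Thus 5 of 10 probes passed, all lower in neural tube, against 5.49% of all probes in either direction, 2.84% lower and 2.65% higher. Epor (-1.34 ± 0.32, limma adjusted p = 0.0635), Hba-a1 (-0.73 ± 0.19, limma adjusted p = 0.0792) and Gata1 (-0.96 ± 0.32, limma adjusted p = 0.149) did not pass, although each had both neural tube arrays below both paraxial arrays. In all, 9 of 10 probes had both neural tube arrays lower, against 18.9% of all probes. Hbb-bh1 differed by -0.30 ± 0.18 (limma adjusted p = 0.441) and the downstream Hbb-y probe by 0.13 ± 0.16 (limma adjusted p = 0.74). The 5 calls rested on the model: with the embryo as a fixed block, or with no embryo block, limma called 0 of 10 and 0 of all 42754 probes, and with the slide row added it called 3. Leaving out any mutant array or either mutant embryo also left 0 calls, leaving out either wild-type embryo left 3, and leaving out any wild-type array gave 8. The log2 differences of the 9 negative probes kept their sign under every alternative.

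In wild-type embryos the same tissue comparison gave 0 calls among the 10 probes, against 2.28% of all probes, and 0 of 10 had an unadjusted p under 0.05, against 17.9% of all probes. Differences ran from -0.32 ± 0.18 for Klf1 and -0.32 ± 0.17 for Hba-x to 0.27 ± 0.32 for Gata1. Both neural tube arrays lay below both paraxial arrays at 4 probes (Alas2, Klf1, Hba-x and the downstream Hbb-y probe), against 17.5% of all probes, and above them at 0 probes, against 18.6%. Gata1 and Epor were again set by 1 array, since without the second wild-type neural tube array their differences turned to -0.40 and -0.57, and without the first both passed (2 calls).

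Whether the mutant effect differed between tissues was tested by the difference of both genotype differences, paraxial minus neural tube. It was positive at 9 of 10 probes, among them Slc4a1 at 1.24 ± 0.26 and Alas2 and Klf1 at 1.03 each, with standard errors of 0.21 and 0.26. Leaving out arrays or embryos kept Alas2 between 0.94 and 1.12 and Slc4a1 between 0.98 and 1.51. Epor at 1.44 ± 0.45 and Gata1 at 1.23 ± 0.45 moved further, to 0.77 and 0.55 without the wild-type neural tube array of embryo 2 and to 2.11 and 1.90 without that of embryo 1. Limma called 0 of 10, as it called 0% of all probes tested, while 6 of 10 had an unadjusted p under 0.05, against 4.98% of all probes; the lowest adjusted p was 0.618, for Alas2. Within single embryos, paraxial minus neural tube was larger in both mutant embryos than in both wild-type embryos at 9 of 10 probes, against 17.7% of all probes. Hbb-bh1 counted only narrowly, with 0.241 and 0.354 in the mutants and -0.052 and 0.237 in the wild types. Alas2 gave 1.14 and 1.32 in the mutants and 0.26 and 0.14 in the wild types. Slc4a1 gave 1.21 and 1.52 against 0.38 and -0.14. The wild-type embryos differed most at Gata1 (0.43 and -0.97) and Epor (0.57 and -0.76), where the mutants gave 0.99 and 0.92, and 1.22 and 1.46. At Hba-x the values were 0.88 and 0.85 against 0.08 and 0.55, and at the downstream Hbb-y probe they were -0.15 and -0.11 against 0.09 and 0.29.

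**Figure D3:**
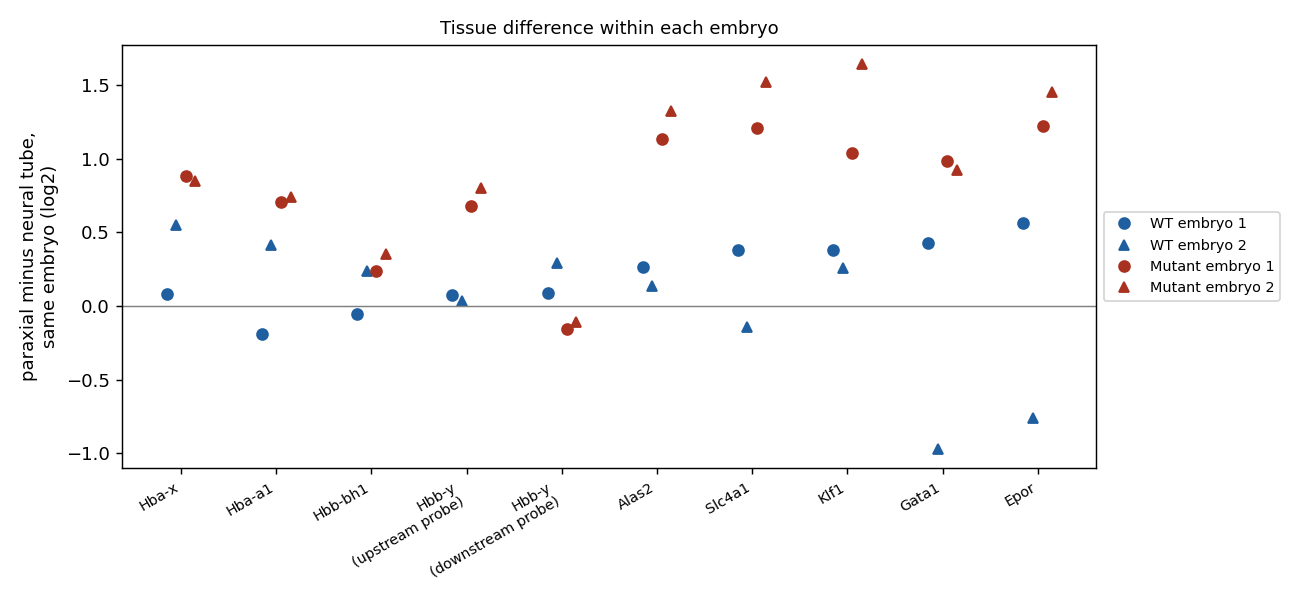
Paraxial minus neural tube scaled log2 signal (y axis) of the same embryo for each member probe, with blue for wild-type and red for mutant embryos. The mutant values of Alas2 (1.14 and 1.32) lie above the wild-type values (0.26 and 0.14), and those of the downstream Hbb-y probe lie below 0.

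The members followed each other unevenly over the 8 arrays. Taking each gene by its brightest probe, Alas2 (r = 0.99), Slc4a1 (0.95) and Klf1 (0.94) were nearest to the mean member profile, and Gata1 (0.75) and Hbb-bh1 (0.70) farthest. That mean includes the gene itself, which raises each of these r values. Between pairs of the 9 genes r ran from 0.30 to 0.97 with a median of 0.75, and the downstream Hbb-y probe had a negative r with every other probe. These correlations are across 8 arrays from 4 embryos that share slide, scan and scaling.

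Because the members stand together, the letters upstream of their start sites are shown. RefSeq (GRCm38.p6) windows were held for 7 of the 9 genes, and 250 bases before the start were searched on both strands for GATA words (A or T, then GATA, then A or G), for CCNCNCCC, which Klf-type factors can bind, and for CCAAT. Below, the 120 bases before the start are printed for 5 members, 4 that passed in the mutant tissue comparison and Hba-a1, with matches in capitals; the motifs can overlap where capitals run on.
Hba-x, chr11:32276480-32276599, plus strand: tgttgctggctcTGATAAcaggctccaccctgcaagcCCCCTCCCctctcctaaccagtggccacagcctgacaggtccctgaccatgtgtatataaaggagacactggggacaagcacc
Hba-a1, chr11:32283552-32283671, plus strand: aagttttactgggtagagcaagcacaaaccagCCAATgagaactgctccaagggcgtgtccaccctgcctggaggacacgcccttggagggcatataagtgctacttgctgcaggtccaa
Hbb-y, chr7:103853208-103853327, minus strand: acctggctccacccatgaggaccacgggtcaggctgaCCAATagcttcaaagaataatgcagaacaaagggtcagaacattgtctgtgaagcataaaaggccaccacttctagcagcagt
Alas2, chrX:150547297-150547416, plus strand: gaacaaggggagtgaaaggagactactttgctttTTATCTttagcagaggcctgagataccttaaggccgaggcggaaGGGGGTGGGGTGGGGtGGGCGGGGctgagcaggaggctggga
Klf1, chr8:84901862-84901981, plus strand: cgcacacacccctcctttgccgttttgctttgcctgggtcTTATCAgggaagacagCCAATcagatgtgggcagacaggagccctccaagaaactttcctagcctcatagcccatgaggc
A GATA word stood in 6 of the 7 windows (all except Gata1's own), against 26.5% of 32851 promoters of the same length. For Hbb-y and Hba-a1 it lay 162 and 183 bases before the start, outside the 120 bases printed. CCNCNCCC stood in 4 of 7 (Hba-x, Alas2, Gata1 and Epor) against 45.9%, and CCAAT in 3 of 7 (Hba-a1, Hbb-y and Klf1) against 33.8%. These matches describe the letters in the windows, and the upstream windows of Hba-a1 and Hba-a2 were identical over 247 bases when aligned.

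Other erythroid genes were read from 5 lists of 70 genes, of which 67 were on the array and 63 had a kept probe. In the mutant tissue comparison 11 of 63 passed, 9 lower and 2 higher in neural tube, against the 5.49% of all probes given above, and the median difference was -0.37 against -0.02 over all probes. In the wild-type tissue comparison 1 of 63 passed, beside 2.28% of all probes. In both genotype comparisons limma called 0 of 63, with 3 in neural tube and 4 in paraxial tissue at an unadjusted p under 0.05, beside 3.62% and 3.49% of all probes. In paraxial tissue 30 of the 63 had both mutant arrays above both wild-type arrays, beside 20.4% of all probes, and 4 had both below, beside 16.3%.

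The globins outside the member list did not all share the member pattern. Ahsp, which encodes the chaperone of free alpha chains, was lower in the neural tube of mutants than in their paraxial tissue by -1.38 ± 0.21 (limma adjusted p = 0.0193). It read 12.41 and 12.11, 13.01 and 12.16, 12.70 and 12.51, and 14.32 and 13.61 in the order of groups used above. The adult beta chains Hbb-b1 and Hbb-b2 were also lower there, by -1.45 ± 0.26 and -1.76 ± 0.32 (limma adjusted p = 0.0289 and 0.0294). Their high groups were otherwise placed: Hbb-b1 read 12.78 and 12.75 in wild-type neural tube, 10.51 and 11.35 in mutant neural tube, 13.00 and 12.55 in wild-type paraxial tissue, and 11.81 and 12.95 in mutant paraxial tissue. So the mutant paraxial arrays of Hbb-b1 overlapped the wild-type ones, and the mutant neural tube arrays lay below all others. Mutant minus wild type in neural tube was -1.83 ± 0.41 for Hbb-b1 and -1.76 ± 0.50 for Hbb-b2, and neither passed (limma adjusted p = 0.921 for each). Hbb-b1 and Hbb-b2 share long stretches of sequence, so whether a probe of one also binds the other's RNA is uncertain. Hba-a1 and Hba-a2 share such stretches too, and the probe of each is listed for both genes, so they were not read apart.

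**Figure D4:**
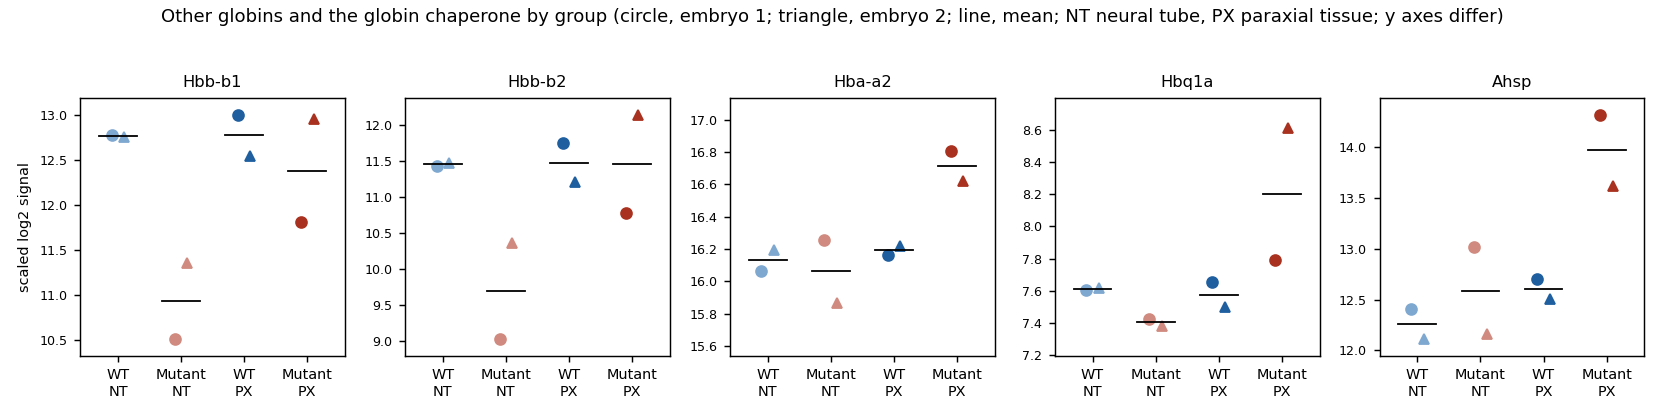
Scaled log2 signal (y axis) of the other globins and of Ahsp in the 4 groups (x axis; NT neural tube, PX paraxial tissue), with circles for embryo 1, triangles for embryo 2 and lines for means. Hbb-b1 and Hbb-b2 are lowest in mutant neural tube, and Ahsp is highest in mutant paraxial tissue at 14.32 and 13.61.

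In the haem and iron list 2 of 17 genes passed in the mutant tissue comparison, beside 5.49% of all probes. Of the 17, 13 were lower and 4 higher in neural tube. Slc25a37, the mitochondrial iron importer mitoferrin, was lower in mutant neural tube by -0.89 ± 0.17 (limma adjusted p = 0.0349), and Cpox, an enzyme late in haem synthesis, by -0.82 ± 0.18 (limma adjusted p = 0.047). In the membrane list 2 of 15 passed, Gypc by -1.20 ± 0.20 and the blood group gene Kel by -1.83 ± 0.31 (limma adjusted p = 0.024 and 0.0254). Gypc, which encodes glycophorin C, also passed in wild-type embryos at -1.29 ± 0.20 (limma adjusted p = 0.0304). Pklr, the red cell pyruvate kinase, was lower by -1.34 ± 0.23 (limma adjusted p = 0.0254) and was the 1 gene of 13 on the enzyme list that passed. On the membrane list 11 genes were lower and 4 higher in neural tube. The enzyme list was divided, with 7 lower and 6 higher and a median difference of -0.05 against -0.02 over all probes.

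Among 13 further erythroid transcription factors, 3 passed in the mutant tissue comparison, in both directions, beside 5.49% of all probes. Zfpm1, the Gata1 partner FOG1, was lower in neural tube by -1.07 ± 0.21 (limma adjusted p = 0.0383). E2f2 was higher there by 0.91 ± 0.15 (limma adjusted p = 0.0247). Myb was at least 5.78-fold higher there (limma adjusted p = 0.0131), and both genes also act in dividing cells outside the erythroid lineage. Myb was not well above background on either mutant paraxial array but was on the 6 other arrays, so the fold is a lower bound. Its denominator takes, for each dim array, whichever is higher of the probe's own signal and the lowest signal there that was well above background. Against the same floor Myb was at least 2.74-fold higher in wild-type than in mutant paraxial tissue, where it did not pass (limma adjusted p = 0.997).

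Of 13692 other genes whose probes varied at least as much as the median probe, 52 correlated with the mean member profile above 0.9 over the 8 arrays. The 10 closest were Smim1 (0.97), Ano7, Acp5, Mt1, Spon2, Padi3, Scn4b, Alx1, Rnf125 and Gm12503 (0.94), of which Ano7, Alx1, Rnf125 and Gm12503 were well above background on 4 arrays or fewer. Smim1, listed on the array under an older name, encodes the red cell membrane protein that carries the Vel blood group in humans. The haem synthesis gene Fech (0.96) and Hba-a2 (0.96), named after their values were seen, varied too little to enter this list (standard deviations of 0.33 and 0.30 over the arrays). The Hba-a2 probe is also listed for Hba-a1, which is part of the mean member profile, so its r is not that of a separate gene.

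Markers of other cells that a captured piece could hold moved in part with the members. All 12 endothelial markers were higher in mutant than in wild-type paraxial tissue, 11 without overlap (20.4% of all probes were so), and their summed linear signal was 141946 and 128350 in mutant paraxial tissue, 79553 and 105048 in wild-type paraxial tissue, 59896 and 75191 in mutant neural tube, and 55406 and 95156 in wild-type neural tube. All 12 were well above background on every array. In mutants 4 of them passed as lower in neural tube than in paraxial tissue, beside 2.84% of all probes. Of 9 surface ectoderm genes, 9 were higher in mutant paraxial tissue, 8 without overlap, with summed signals of 357726 and 325806 against 247133 and 277258. In neural tube 8 of the 9 were also higher in mutants, 6 without overlap beside 16.4% of all probes. Their median difference there was 0.91 against -0.02 over all probes. In paraxial tissue 7 of 10 macrophage genes were higher in mutants, 1 without overlap, at 67970 and 98668 against 57512 and 69941. Of 7 megakaryocyte and platelet genes 5 were higher there, 2 without overlap, at 11399 and 11015 against 11433 and 9039. Of the 10 paraxial markers 7 were lower in mutant than in wild-type paraxial tissue, 5 without overlap beside 16.3% of all probes, with a median difference of -0.63, and their median neural tube minus paraxial difference was -2.62 in mutants and -3.82 in wild types, as measured, and 4 of the 10 were not well above background on at least 1 array. Limma called 0 genes of these 5 lists between genotypes in paraxial tissue, and their part in the member differences was not tested.

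**Figure D5:**
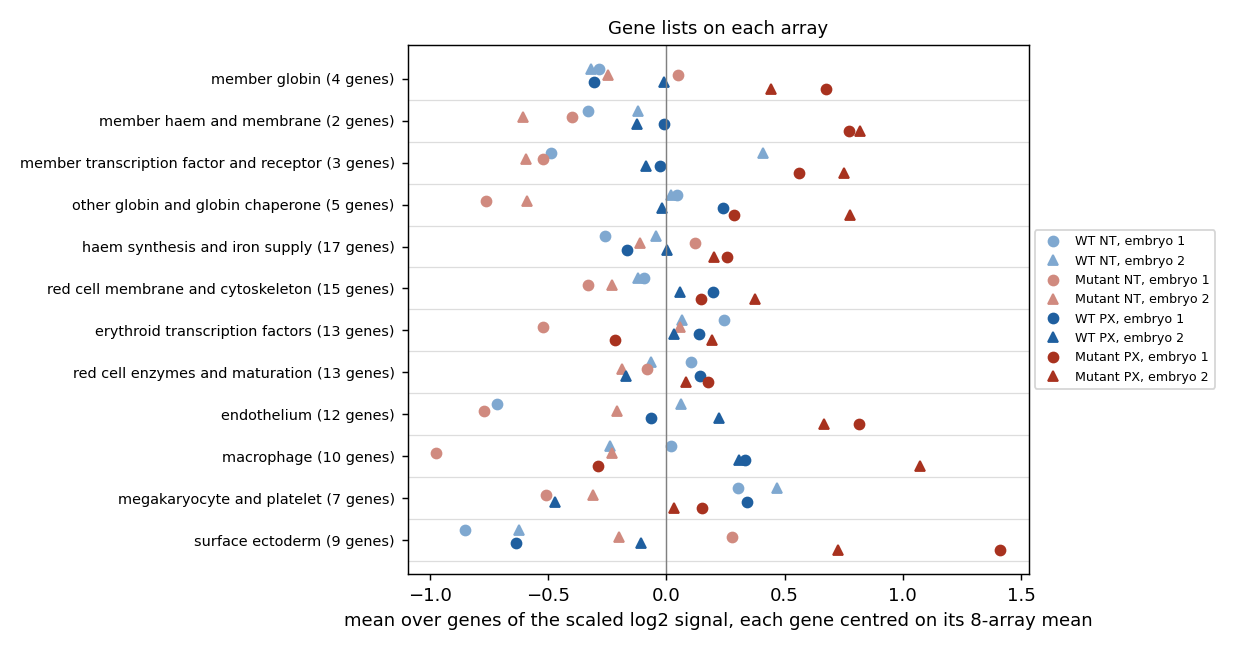
Mean over the genes of each list of the centred scaled log2 signal (x axis) on each of the 8 arrays, with colours for groups, circles for embryo 1 and triangles for embryo 2. Mutant paraxial arrays are highest for the member globins at 0.68 and 0.44 and for endothelium at 0.82 and 0.67.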

How the data were processed

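The scanner images were read in Agilent Feature Extraction 11.0.1.1 with a red-only protocol, per the file headers. The laser-cut pieces gave RNA by the PicoPure kit, and Cy5 was attached to the cDNA, per the labels' protocols. The deposited intensity values are the authors' linear processed signals. A value table of the authors differed from them by at most 0.497% and was also tried. The slide was shared by all arrays, and the replicate number was its row.

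Of 62976 spots, 3671 were controls, and 17 of 55681 probes were dropped as scanner outliers on an array. Intensities were taken as log2, scaled to the 75th percentile of each array, and probes kept if well above background on both arrays of a group (42754). Means of 4 groups were fitted with limma 3.58.1 in R 4.3.3 (data.table package, version 1.17.8; figures with matplotlib in Python), with embryos as random blocks (duplicateCorrelation, correlation 0.595), eBayes (4 residual and 2.91 prior degrees of freedom) and Benjamini-Hochberg adjustment at 0.05 over all kept probes. The code was tested on simulated data. Labels give the shared embryo, and both tissues of an embryo deviated together (r = 0.54 in wild type and 0.60 in mutants). With 2 embryos against 2, an exact permutation test cannot go below p = 0.333. The text names every member probe. From each other erythroid list and comparison it draws on the genes that passed (up to 4 by smallest p), or the 2 with the smallest p, and names 10 genes by likeness. Gmnn and the sex-linked genes Xist and Eif2s3y were added as checks. The members and lists were chosen with earlier results of these data known, and an array name first listed as an alias of Tmem14c was removed, since the RefSeq table gives it to Smim1.

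Alternatives were median and quantile scaling, normexp background correction, other filters on dim probes, the brightest probe per gene, other blocks, robust moderation, and leaving out each array or embryo. Promoter letters are from RefSeq (GRCm38.p6).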

Additional observations from a re-analysis of the deposited data

How the results depend on the processing

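The 0 calls among member probes between genotypes in either tissue, and in the difference of both, held under every alternative that could be fitted. In the mutant tissue comparison the 5 calls became 3 without a filter on dim probes, 3 with slide row as an added replicate block, 0 with no replicate block and 0 with the embryo as a fixed replicate block; leaving out an array or an embryo gave 0 to 8. Of these, leaving out any wild-type array gave 8, a wild-type embryo 3, and any mutant array or embryo 0. Leaving out an array re-estimated the embryo correlation (0.742 to 0.785 without a wild-type array, 0.50 to 0.51 without a mutant one), while without an embryo it was held at 0.595. The cause of these changes was not tested. In wild-type embryos the tissue comparison had 0 to 2 calls, 2 only without wild-type neural tube replicate 1. Quantile scaling, median scaling, normexp, the authors' value table, the brightest probe, robust moderation and the stricter filter on dim probes left each count of calls within 1.5 times.

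The directions that turned were all of uncalled differences. Between genotypes in neural tube, quantile scaling turned Hba-x to -0.0488 and Hba-a1 to -0.0390. In wild-type tissues, quantile scaling turned the upstream Hbb-y probe to 0.0404, and normexp turned it to 0.0966 and Hbb-bh1 to 0.0206. Leaving out arrays or embryos moved the neural tube genotype differences across 0 for Hba-x (-0.0717 to 0.361), Hba-a1 (-0.11 to 0.42), Gata1 (-1.28 to 0.0649) and Epor (-1.35 to 0.0126), and the paraxial one of the downstream Hbb-y probe (-0.319 to 0.0625). It did so for the wild-type tissue differences of Hbb-bh1 (-0.270 to 0.0849), Hba-a1 (-0.41 to 0.19), Slc4a1 (-0.38 to 0.14), Gata1 (-0.43 to 0.97) and Epor (-0.57 to 0.77). Each genotype had 2 embryos, which limits all values above.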
